A study of Mus musculus with 9 samples.

Results

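Imprinted genes, Grb10 among them, were followed in mouse embryonic stem cells (ESCs) after induction of a forced E2A homodimer. The 40 genes were taken by name from the 47729 genes in the deposited expression table, and all 40 were found there. From general knowledge 23 of them were classed as expressed from the paternal allele, 15 from the maternal allele, and 2 (Ddc and Gnas) as depending on isoform or tissue. Grb10 was kept in the maternal class although its expressed copy differs between tissues. The RNA was not split by parental allele, so every value below is the sum of both alleles. Which allele was used in these ESCs was not measured, so the classes are labels from other tissues and studies.

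Imprinted genes are expressed from only 1 parental copy, at least in some tissues. Often this is because DNA methylation laid down in the egg or the sperm sets the copies apart at an imprinting control region. A control region usually governs a cluster of neighbouring genes, some expressed from the paternal and others from the maternal copy, and a long noncoding RNA or the insulator protein CTCF often carries the mark over to the neighbours. Many of these genes act on growth of the embryo and placenta. Grb10 encodes an adaptor protein that restrains insulin and growth factor signalling, and is expressed from the maternal copy in most tissues and from the paternal copy in neurons.

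The cells carried a doxycycline (dox)-inducible transgene, placed upstream of Hprt by cassette exchange, that encodes a FLAG-tagged mouse E47 tethered by a linker to another E47, E47 being a product of the E2A gene Tcf3. They were held in LIF and serum, and dox was added at 1 µg/ml for 18 h or 24 h, while the 0 h cells carried the same transgene and received no dox. There were 3 biological replicates at each of 3 time points, 9 RNA-seq libraries of polyadenylated RNA in all. Whether the line was a single clone was not stated. Dox-treated cells lacking the transgene, and untreated cells at 18 h or 24 h, are not part of the data used here. An effect of dox or of time in culture therefore cannot be told apart from an effect of the homodimer. The protocol text in the labels names other times of dox, and the times in the titles and treatment entries were used. A library held 22028363 to 26471569 reads on 19210 genes. Tcf3 was at 37.7 to 41.2 FPKM at 0 h, at 106.6 to 116.5 at 18 h and at 93.6 to 108.4 at 24 h (FPKM, read fragments scaled for gene length and for the depth of the library). Tcf3 reads can come from the transgene or from the endogenous gene, which were not told apart. All 10 ESC markers were detected, with a summed level of 1446 to 2126 FPKM at 0 h and 1071 to 1719 FPKM at 24 h. Of these, Tdgf1 was called downregulated at 24 h (log2 fold-change -1.46, adjusted p=0.000115 with limma), Pou5f1 was lower (-0.58, adjusted p=0.0221) and Nanog higher (0.86, adjusted p=0.00735). In a limma fit that held the replicate number as a block, Klf4 was also higher (0.38, adjusted p=0.0101). Utf1 (-0.38, adjusted p=0.0132) and Dppa5a (-0.35, adjusted p=0.00338) were also lower in it. That made 2 of the 10 higher and 4 lower at 24 h, where 13.6% and 12.5% of all genes were.

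At 0 h the 40 genes spanned a wide range of levels. The highest was Peg10, a retrotransposon-derived gene needed in the placenta, at a mean of 215 FPKM, followed by Impact at 145, Mest at 99.6, Snrpn at 78.1 and Slc38a4 at 56.8. The lowest was Kcnq1ot1, a noncoding RNA of great length, at 0.135 FPKM. A mean above 10 FPKM was found for 15 genes, 16 lay between 1 and 10 FPKM and 9 below 1 FPKM. Grb10 ranked number 9 at 16.4 FPKM.

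Between 0 h and the later times 1 of the 40 genes fell and 4 rose past both thresholds of the study, an adjusted p of at most 0.05 and a log2 fold-change of at least 1 in size. This is the minimum fold-change in the study's methods, and at the log2 fold-change of 2 that it names elsewhere Grb10 alone would be called. Grb10 fell, and Peg3, Usp29, Asb4 and Peg12 rose, each of them at 18 h and again at 24 h. Both comparisons share the 0 h libraries. Changes were tested with limma on log2(FPKM+0.1) over the 17951 genes whose FPKM averaged 0.1 or more, a filter that all 40 imprinted genes passed. Of all genes tested, 1.33% were called upregulated and 0.724% downregulated at 18 h, and 2.07% and 0.836% at 24 h.

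Without the minimum fold-change, 4 imprinted genes were higher and 7 lower at 18 h by adjusted p alone, where 4.27% and 3.72% of all genes were. At 24 h 8 were higher and 6 lower, where 6.52% and 5.11% of all genes were. Both directions together came to 11 imprinted genes at 18 h and 14 at 24 h. Leaving out 1 library gave 5 to 14 at 18 h and 5 to 12 at 24 h. When the fit held the replicate number as a block, 8 were higher and 15 lower at 18 h (10.8% and 10.7% of all genes), and 10 were higher and 11 lower at 24 h (13.6% and 12.5%). The 3 libraries at 18 h lay all above the 3 libraries at 0 h for 9 imprinted genes (14.4% of all genes) and all below for 11 (13.7%). At 24 h these numbers were 9 (16.7%) and 10 (14.6%). The median size of the log2 fold-change at 24 h was 0.34 over the imprinted genes and 0.21 over all genes.

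**Figure D1:**
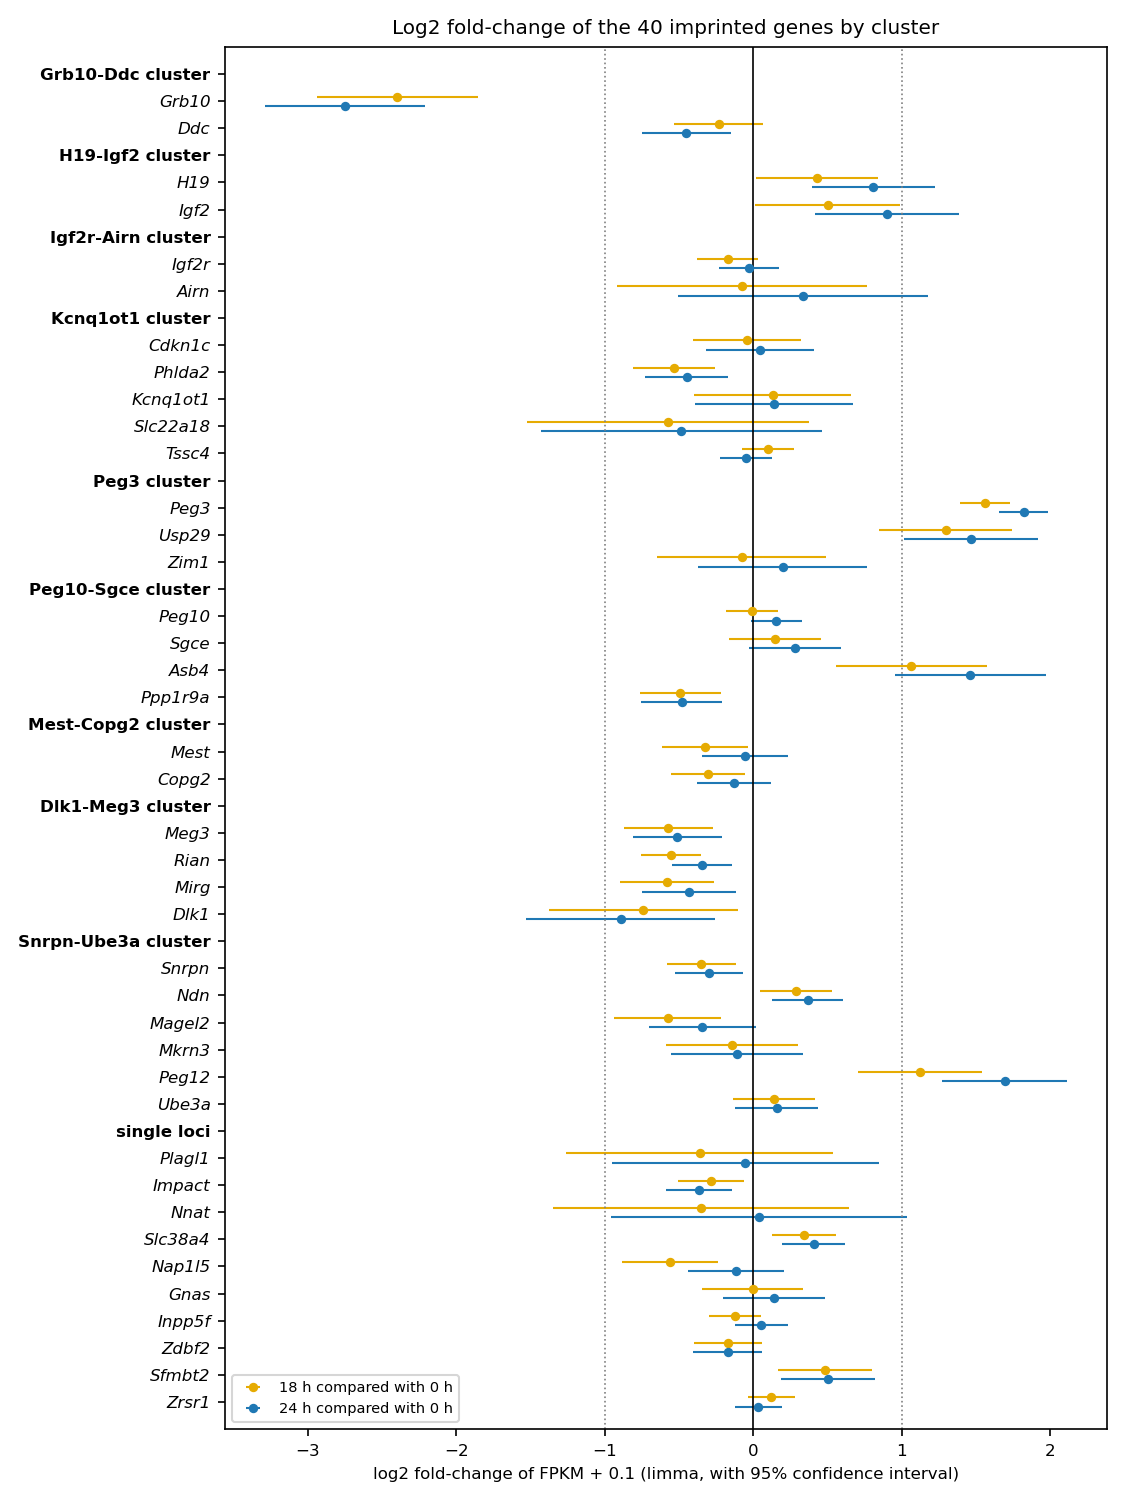
Log2 fold-change of each of the 40 imprinted genes at 18 h (yellow) and 24 h (blue) compared with 0 h, grouped by cluster, with the 95% confidence interval from limma as a bar and dotted lines at the minimum fold-change. Grb10 lies far to the left at -2.39 and -2.75, and Peg3, Usp29, Asb4 and Peg12 lie to the right of the line at 1.

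Grb10 (ENSMUSG00000020176, chr11:11930508-12038683, minus strand, GRCm38) had the largest change among the imprinted genes. Its level in replicates 1, 2 and 3 was 19, 9.95 and 20.3 FPKM at 0 h, 3.0, 3.02 and 2.68 by 18 h and 2.26, 2.59 and 1.94 by 24 h. All libraries with dox lay below all libraries without it, and the 24 h libraries also lay below the 18 h libraries, while replicate 2 at 0 h stood well below the other two. The mean was 5.66 times lower at 18 h and 7.25 times lower at 24 h than at 0 h. On the log2 scale the fold-change was -2.39 at 18 h (s.e. 0.239, adjusted p=0.00108) and -2.75 at 24 h (adjusted p=0.000402). Ordered from the largest decrease, Grb10 was number 16 of the 17951 genes at 18 h and number 10 at 24 h. It was counted from 481 to 4113 reads per library, and leaving out each library in turn gave log2 fold-changes of -3.07 to -2.56 at 24 h, the lowest of them without 0 h replicate 2.

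Ddc, which lies 32363 bases from Grb10 in the same cluster and encodes the decarboxylase that makes dopamine and serotonin, did not pass limma's test at either time. Its level was 3.03, 2.87 and 3.15 FPKM at 0 h, 2.89, 2.28 and 2.52 by 18 h and 2.45, 1.84 and 2.29 by 24 h. The 24 h libraries lay below the 0 h libraries and the 18 h libraries overlapped them. In the fit the log2 fold-change came to -0.23 at 18 h (s.e. 0.133, adjusted p=0.312) and -0.45 at 24 h (adjusted p=0.0579, and 0.0114 with the replicate block). On the recovered reads the adjusted p of Ddc at 24 h was 0.0348 with edgeR and 0.0107 with DESeq2. The ratio of Grb10 to Ddc in FPKM was 5.39±1.67 (mean±s.d., n=3) at 0 h, 1.14±0.160 by 18 h and 1.06±0.306 by 24 h, and the 0 h libraries did not overlap the others.

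Both promoter windows that RefSeq gives for Grb10 (250 bases before to 50 bases after the start of transcription, minus strand, GRCm38.p6) are shown because Grb10 was the gene that fell. They were searched for CANNTG, the E-box that E2A proteins are known to bind, which reads as itself on either strand, and matches are in capitals. Window 1 (chr11:12037371-12037670) held none and had a GC content of 80%, and window 2 (chr11:12027922-12028221) held 1.
Grb10 window 1: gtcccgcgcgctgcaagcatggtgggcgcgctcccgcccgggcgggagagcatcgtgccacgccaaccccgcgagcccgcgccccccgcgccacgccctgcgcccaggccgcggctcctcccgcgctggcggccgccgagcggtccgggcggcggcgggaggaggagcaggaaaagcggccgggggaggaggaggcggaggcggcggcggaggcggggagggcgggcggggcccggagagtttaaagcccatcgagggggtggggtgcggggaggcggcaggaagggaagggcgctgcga
Grb10 window 2: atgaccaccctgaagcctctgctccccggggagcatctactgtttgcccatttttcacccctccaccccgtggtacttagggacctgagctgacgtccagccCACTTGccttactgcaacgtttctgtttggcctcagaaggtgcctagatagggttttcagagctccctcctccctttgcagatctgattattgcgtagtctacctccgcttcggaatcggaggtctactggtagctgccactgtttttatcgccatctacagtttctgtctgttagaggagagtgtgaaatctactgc
CANNTG was found in 72.3% of all 32851 RefSeq promoter windows of this length. A match is a description of the letters and not evidence of binding.

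**Figure D2:**
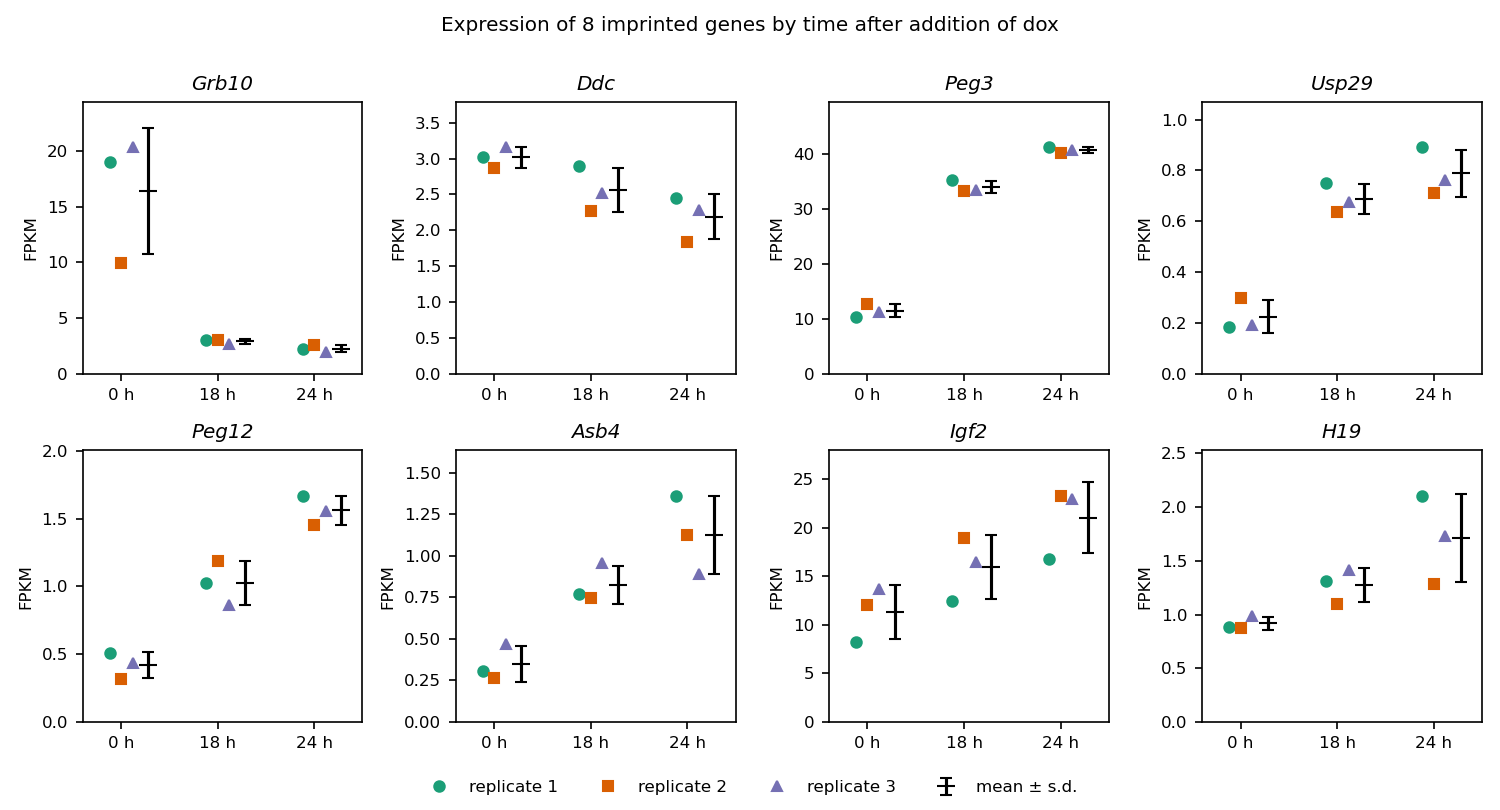
Level in FPKM of 8 imprinted genes in each library by time, with a symbol for each replicate and the mean and s.d. (n=3) in black beside them. Every Grb10 library with dox lies at or below 3.02 FPKM and every one without dox at or above 9.95 FPKM, whereas Peg3 stands at 10.4 to 12.8 FPKM without dox and at 33.3 to 41.1 FPKM with it.

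Peg3 (ENSMUSG00000002265, chr7:6703892-6730431, minus strand) and Usp29 (ENSMUSG00000051527, chr7:6730578-6967219, plus strand), paternally expressed neighbours that start back to back, rose together. Peg3 encodes a zinc finger protein with roles in maternal behaviour and growth, and Usp29 a deubiquitinase. Peg3 was at 10.4, 12.8 and 11.3 FPKM at 0 h, 35.2, 33.3 and 33.4 by 18 h and 41.1, 40.1 and 40.7 by 24 h. The 3 time points did not overlap anywhere. The log2 fold-change of Peg3 was 1.56 at 18 h (s.e. 0.0739, adjusted p=2.37e-05) and 1.82 at 24 h (adjusted p=8.82e-06).

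Usp29 was far lower, at 0.183, 0.300 and 0.191 FPKM at 0 h, 0.752, 0.635 and 0.675 by 18 h and 0.890, 0.711 and 0.764 by 24 h. All libraries with dox lay above all libraries without it, and the 18 h and 24 h libraries overlapped. Its log2 fold-change was estimated as 1.29 at 18 h (s.e. 0.199, adjusted p=0.00688) and 1.47 at 24 h (adjusted p=0.00309), from 75 to 409 reads per library. The ratio of Peg3 to Usp29 was 52.8±8.93 at 0 h, 49.6±2.82 by 18 h and 51.9±5.22 by 24 h (mean±s.d., n=3), and its range at each time overlapped the ranges at the others. Usp29 overlaps several predicted loci on its own strand and Zim3 on the other, so its reads are less certain than those of Peg3.

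Zim1, the maternally expressed zinc finger gene next to Peg3, stayed between 0.222 and 0.456 FPKM in all libraries, and the time points overlapped. Its adjusted p was 0.877 by 18 h and 0.652 by 24 h, from 42 to 91 reads per library. The difference between Zim1 and its neighbours was not itself tested.

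The RefSeq start sites of Peg3 and Usp29 lie 164 bases apart, so their promoter windows share 263 bases read on opposite strands. The windows of both genes are shown because both genes rose. Neither the Peg3 window (chr7:6730370-6730669, minus strand) nor the Usp29 window (chr7:6730333-6730632, plus strand) held CANNTG. No match says only that these letters are not in this window.
Peg3: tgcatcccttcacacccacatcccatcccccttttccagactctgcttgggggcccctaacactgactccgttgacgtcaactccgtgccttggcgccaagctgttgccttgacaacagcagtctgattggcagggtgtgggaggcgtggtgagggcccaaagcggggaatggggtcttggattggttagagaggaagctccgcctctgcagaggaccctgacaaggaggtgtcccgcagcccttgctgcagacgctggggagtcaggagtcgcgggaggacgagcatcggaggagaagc
Usp29: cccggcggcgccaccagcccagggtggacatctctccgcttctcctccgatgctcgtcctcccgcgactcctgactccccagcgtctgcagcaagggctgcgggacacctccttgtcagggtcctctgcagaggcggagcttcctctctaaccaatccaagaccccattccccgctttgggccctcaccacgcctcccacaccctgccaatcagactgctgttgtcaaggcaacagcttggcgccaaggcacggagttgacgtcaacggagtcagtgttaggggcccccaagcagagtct

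The cluster of Peg10 and Sgce held genes that moved in opposite directions. Asb4 (chr6:5383386-5433022, plus strand), maternally expressed and encoding a subunit of a ubiquitin ligase, was at 0.309, 0.265 and 0.468 FPKM at 0 h, 0.767, 0.745 and 0.957 by 18 h and 1.36, 1.13 and 0.887 by 24 h, from 25 to 136 reads per library. All libraries with dox lay above all libraries without it. On the log2 scale the fold-change was 1.06 at 18 h (s.e. 0.226, adjusted p=0.0239) and 1.46 at 24 h (adjusted p=0.00572). The call at 24 h was kept in all 9 fits that left out 1 library, with adjusted p values of 0.00621 to 0.0281. The call at 18 h was lost in 5 of them, without 0 h replicates 1 and 2 and without each 18 h replicate, at adjusted p values up to 0.0935.

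Ppp1r9a, a maternally expressed gene for the synaptic scaffold protein neurabin, was at 3.96, 3.01 and 3.97 FPKM at 0 h, 2.66, 2.43 and 2.55 by 18 h and 2.48, 2.51 and 2.69 by 24 h. Every library with dox was below every library without it. It fell by 0.49 on the log2 scale at 18 h (s.e. 0.12, adjusted p=0.04) and by 0.48 at 24 h (adjusted p=0.0345). Leaving out 1 library in turn took the adjusted p above 0.05 in 8 of 9 fits at 18 h and in 7 of 9 at 24 h, to at most 0.13, while the log2 fold-change stayed within -0.62 to -0.42.

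Peg10 and Sgce, the paternally expressed pair at the control region of this cluster, passed limma's test at neither time. Peg10 was at 194 to 243 FPKM in all libraries, and its 24 h libraries lay above its 18 h libraries (adjusted p=0.22 at 24 h compared with 0 h, and 0.0213 from edgeR with the replicate block). Sgce, which encodes a sarcoglycan, was at 2.73 to 4.35 FPKM (adjusted p=0.217 at 24 h, and 0.0225 with the replicate block).

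Both RefSeq windows of Asb4 are shown as those of a gene that rose. Window 1 (chr6:5383136-5383435) held 1 CANNTG and window 2 (chr6:5390160-5390459) held 2, in capitals.
Asb4 window 1: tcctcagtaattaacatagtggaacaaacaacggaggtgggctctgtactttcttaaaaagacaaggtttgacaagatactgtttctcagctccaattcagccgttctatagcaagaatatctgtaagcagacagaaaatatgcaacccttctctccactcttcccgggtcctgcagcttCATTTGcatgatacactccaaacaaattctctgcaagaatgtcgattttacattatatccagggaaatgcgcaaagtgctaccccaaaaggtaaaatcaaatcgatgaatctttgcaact
Asb4 window 2: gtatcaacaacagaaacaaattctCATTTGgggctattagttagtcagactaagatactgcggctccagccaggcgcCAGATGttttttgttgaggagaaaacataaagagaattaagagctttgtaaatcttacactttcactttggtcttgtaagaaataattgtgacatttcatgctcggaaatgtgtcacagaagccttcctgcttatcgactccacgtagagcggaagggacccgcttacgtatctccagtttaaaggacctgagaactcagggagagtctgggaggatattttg

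Of the 6 genes in the cluster of Snrpn and Ube3a, the region of the Prader-Willi and Angelman syndromes, Peg12 alone passed both thresholds. Peg12 (ENSMUSG00000070526, chr7:62461871-62464510, minus strand, 1 exon), paternally expressed and encoding a FRAT-family protein of Wnt signalling, was at 0.508, 0.316 and 0.436 FPKM at 0 h, 1.03, 1.19 and 0.861 by 18 h and 1.67, 1.45 and 1.56 by 24 h. The 3 time points did not overlap. In the fit the log2 fold-change came to 1.12 at 18 h (s.e. 0.186, adjusted p=0.00975) and 1.69 at 24 h (adjusted p=0.00124), from 20 to 112 reads per library. The adjusted p stayed at or below 0.0473 in every fit that left out 1 library, but without 0 h replicate 2 the log2 fold-change at 18 h was 0.968 and so under the minimum.

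The Peg12 window (chr7:62464461-62464760, minus strand) is shown because Peg12 had the largest rise of its cluster. It held 1 CANNTG, in the form CAGCTG, which 16.3% of all windows held.
Peg12: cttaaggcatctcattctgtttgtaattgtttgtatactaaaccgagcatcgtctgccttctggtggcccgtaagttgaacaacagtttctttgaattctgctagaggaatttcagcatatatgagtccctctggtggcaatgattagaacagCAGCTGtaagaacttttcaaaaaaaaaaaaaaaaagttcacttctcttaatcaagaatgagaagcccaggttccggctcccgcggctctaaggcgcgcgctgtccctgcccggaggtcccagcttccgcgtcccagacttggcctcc

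The other genes of the cluster did not pass limma's test at either time. Snrpn, which encodes a small nuclear ribonucleoprotein, was at 68.2 to 86.9 FPKM at 0 h and 57.5 to 68.1 at 18 h, and its libraries with dox lay below those without (adjusted p=0.068 at 18 h, and 0.0269 with the replicate block). At 24 h the adjusted p of Snrpn was 0.0922, and 0.0392 with the block. On the recovered reads Snrpn passed at both times, with adjusted p values of 0.0356 and 0.0481 from edgeR and 0.0131 and 0.0273 from DESeq2. Ndn, a gene of the MAGE family, was at 3.70 to 4.93 FPKM at 0 h and 5.37 to 5.66 at 24 h, and its libraries with dox lay above those without (adjusted p=0.131 by 18 h and 0.0563 by 24 h, and 0.047 and 0.0187 with the block). For Ndn at 24 h edgeR gave an adjusted p of 0.0474 and DESeq2 0.032.

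Magel2, another MAGE gene, 26747 bases from Ndn, was at 2.29, 3.02 and 3.08 FPKM at 0 h, 1.78, 1.73 and 1.98 by 18 h and 1.81, 2.17 and 2.58 by 24 h. The 18 h libraries lay below the 0 h libraries and the 24 h libraries overlapped them. Its log2 fold-change was estimated as -0.58 at 18 h (s.e. 0.159, adjusted p=0.0573, and 0.0101 with the replicate block) and -0.34 at 24 h (adjusted p=0.193, and 0.0488 with the block). On the recovered reads the adjusted p of Magel2 at 18 h was 0.027 with edgeR and 0.00407 with DESeq2. In limma, with or without the block, Mkrn3 and Ube3a passed at neither time, while edgeR with the block gave Ube3a an adjusted p of 0.0412 at 24 h. Ndn, Magel2 and Mkrn3 overlap the noncoding gene Gm32061, on the strand opposite to Ndn and Magel2, and Ube3a overlaps Snhg14 on the other strand. Snrpn overlaps the protein-coding genes Snurf, at 0 FPKM in every library, and Gm38393 on its own strand. Strand cannot separate reads in those stretches. The libraries were made with a strand-specific kit, but how strand was used in the counting was not stated.

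H19 and Igf2, the noncoding RNA and the fetal growth factor that share an enhancer from opposite parental copies, were both higher at 24 h. Igf2, paternally expressed, was at 8.27, 12 and 13.7 FPKM at 0 h, 12.4, 19 and 16.5 by 18 h and 16.8, 23.3 and 23.0 by 24 h. The 24 h libraries lay above the 0 h libraries, the 18 h libraries overlapped them, and replicate 1 was lowest at each time. On the log2 scale the fold-change was 0.50 at 18 h (s.e. 0.215, adjusted p=0.184, and 0.00582 with the replicate block) and 0.90 at 24 h (adjusted p=0.0297). Leaving out 0 h replicates 1 or 2 or 24 h replicates 2 or 3 took the adjusted p at 24 h above 0.05, to at most 0.108. The log2 fold-change of Igf2 at 24 h ranged from 0.691 to 1.05 in the fits that left out 1 library. It passed both thresholds without 0 h replicate 3 and without 24 h replicate 1. Igf2 overlaps the protein-coding gene Gm49394 on its own strand and Igf2os on the other. Igf2os was at 0.431 FPKM at 0 h and 0.710 at 24 h.

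H19, maternally expressed, was at 0.884, 0.878 and 0.989 FPKM at 0 h, 1.31, 1.10 and 1.41 by 18 h and 2.11, 1.29 and 1.73 by 24 h. Every library with dox was above every library without it. In the fit the log2 fold-change came to 0.43 at 18 h (s.e. 0.183, adjusted p=0.182) and 0.81 at 24 h (adjusted p=0.0244), from 50 to 127 reads per library. Leaving out 0 h replicates 1 or 2 or 24 h replicates 1 or 3 took the adjusted p at 24 h above 0.05, to at most 0.0873. The ratio of Igf2 to H19 was 12.3±2.56 at 0 h, 12.8±3.99 by 18 h and 13.1±5.06 by 24 h (mean±s.d., n=3), and its ranges overlapped at all times.

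The 3 maternally expressed noncoding RNAs of the Dlk1 and Meg3 cluster on chromosome 12 were all lower at 18 h. Meg3, a long noncoding RNA, was at 5.42, 4.19 and 4.68 FPKM at 0 h, 3.09, 3.06 and 3.32 by 18 h and 3.27, 2.81 and 3.87 by 24 h. Rian, the host of many small nucleolar RNAs, was at 11.2, 9.53 and 11.1 FPKM at 0 h, 7.07, 6.87 and 7.62 by 18 h and 7.92, 7.92 and 9.10 by 24 h. Mirg, the host of a string of microRNAs, was at 3.86, 2.95 and 3.14 FPKM at 0 h, 2.20, 2.10 and 2.23 by 18 h and 2.36, 2.07 and 2.86 by 24 h. For each of these genes every library with dox was below every library without it, and the Rian libraries at 24 h lay above those at 18 h.

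Meg3 fell by 0.57 on the log2 scale at 18 h (s.e. 0.133, adjusted p=0.0332) and by 0.51 at 24 h (adjusted p=0.0392). Rian fell by 0.55 at 18 h (s.e. 0.0897, adjusted p=0.00877) and by 0.35 at 24 h (adjusted p=0.0388). The log2 fold-change of Mirg was -0.58 at 18 h (s.e. 0.14, adjusted p=0.039) and -0.43 at 24 h (adjusted p=0.0771, and 0.0327 with the replicate block, 0.0356 with edgeR and 0.00979 with DESeq2). The ratio of Rian to Meg3 was 2.24±0.159 at 0 h, 2.28±0.0292 by 18 h and 2.53±0.251 by 24 h (mean±s.d., n=3). The 0 h range overlapped those of both later times, and the 24 h ratios all lay above the 18 h ratios.

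At 18 h Rian passed the test in all 9 fits that left out 1 library, with adjusted p values up to 0.0448. The adjusted p of Meg3 rose above 0.05 in 5 of them, without 0 h replicates 1 and 3 and without each 18 h replicate, to at most 0.11. That of Mirg rose above 0.05 in 6, the same libraries and 24 h replicate 1, to at most 0.123. At 24 h Meg3 and Rian each passed in 2 of the 9 fits, those without 0 h replicate 2 and without 24 h replicate 3, and the others gave adjusted p values up to 0.129 for both.

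Dlk1 (chr12:109452823-109463336, plus strand), the paternally expressed gene of the cluster, encodes a transmembrane protein related to Notch ligands. It was at 0.400, 0.317 and 0.244 FPKM at 0 h, 0.108, 0.192 and 0.153 by 18 h and 0.188, 0.111 and 0.0844 by 24 h. The libraries with dox lay below those without, but rested on only 13 to 54 reads each. Its log2 fold-change was estimated as -0.74 at 18 h (s.e. 0.281, adjusted p=0.14) and -0.89 at 24 h (adjusted p=0.0715, and 0.0533 with the replicate block). On the recovered reads, edgeR gave Dlk1 a log2 fold-change by 24 h of -1.34 (adjusted p=0.0197) and DESeq2 -1.35 (adjusted p=0.00876), past both thresholds.

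**Figure D3:**
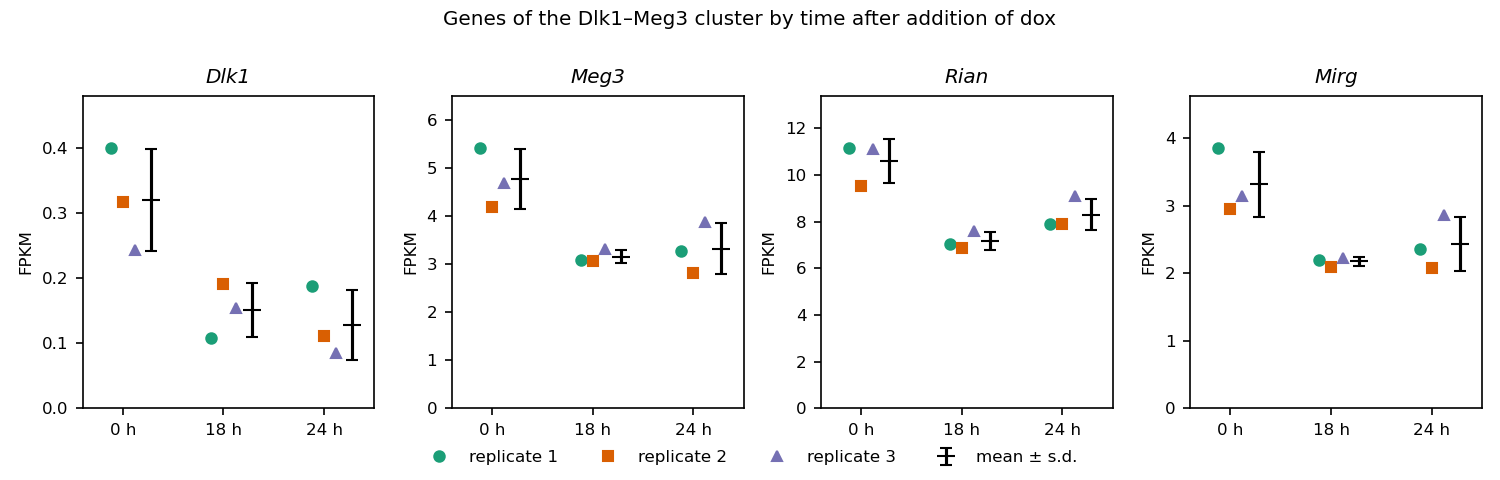
Level in FPKM of the 4 genes of the Dlk1 and Meg3 cluster in each library by time, with a symbol for each replicate and the mean and s.d. (n=3) in black. In each panel the libraries at 18 h and 24 h lie below those at 0 h, with Rian at 6.87 to 9.10 FPKM with dox and 9.53 to 11.2 FPKM without.

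In the Kcnq1ot1 cluster, Phlda2, a maternally expressed gene that limits growth of the placenta, was at 30.6, 24.6 and 25.8 FPKM at 0 h, 20.8, 17.8 and 17.4 by 18 h and 23.1, 17.3 and 19 by 24 h. All libraries with dox lay below all libraries without it. It fell by 0.53 on the log2 scale at 18 h (s.e. 0.123, adjusted p=0.0327) and by 0.45 at 24 h (adjusted p=0.046). The adjusted p rose above 0.05 in 5 of the 9 fits that left out 1 library at 18 h and in 7 of them at 24 h, to at most 0.152, with log2 fold-changes of -0.61 to -0.36.

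Cdkn1c, which encodes a cyclin-dependent kinase inhibitor and lies in the same cluster, was at 4.22 to 6.54 FPKM at 0 h, 4.70 to 5.75 at 18 h and 4.90 to 6.35 at 24 h, and the time points overlapped. Its log2 fold-change was -0.04 at 18 h (s.e. 0.161, adjusted p=0.894) and 0.05 at 24 h (adjusted p=0.884), and its sign changed with the scaling and with single libraries. Slc22a18, a transporter gene, had 2 to 17 reads per library, and its log2 fold-changes of -0.57 (s.e. 0.42, adjusted p=0.433) and -0.48 (adjusted p=0.488) are too poorly measured to be read. Tssc4 stayed between 16.1 and 20.1 FPKM and Kcnq1ot1, the paternally expressed noncoding RNA of the control region, between 0.111 and 0.171 FPKM, and both overlapped between times.

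Igf2r, the maternally expressed receptor gene that clears IGF2 from the cell surface, stayed between 10.9 and 14.3 FPKM and overlapped between times (adjusted p=0.264 by 18 h and 0.881 by 24 h, and 0.043 by 18 h from edgeR with the replicate block). Airn, the noncoding RNA antisense to it, had only 7 to 26 reads per library. Mest, a paternally expressed gene for a hydrolase-like protein, and Copg2, its neighbour on the other strand, were at 71.9 to 114 FPKM and 9.11 to 13.7 FPKM. Neither passed limma's test at either time, while DESeq2 gave Copg2 an adjusted p of 0.045 at 18 h. With the replicate block both were lower at 18 h (Mest log2 fold-change -0.32, adjusted p=0.00301, and Copg2 -0.31, adjusted p=0.0295). The 2 genes overlap, so reads in the shared stretch are uncertain.

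Of the 10 imprinted genes outside these clusters, 1 was lower at 18 h (3.72% of all genes), and 2 were higher (6.52%) and 1 lower (5.11%) at 24 h. Impact, which encodes an inhibitor of the GCN2 kinase, was at 149, 154 and 131 FPKM at 0 h, 111, 129 and 117 by 18 h and 112, 126 and 100.1 by 24 h. Slc38a4, an amino acid transporter gene, was at 50.9, 66.6 and 52.8 FPKM at 0 h, 68.0, 73.9 and 72.6 by 18 h and 72.2, 77.3 and 74.7 by 24 h. Impact was lower and Slc38a4 higher in every library with dox than in every library without it.

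Impact fell by 0.37 on the log2 scale at 24 h (s.e. 0.0975, adjusted p=0.0432), and its log2 fold-change at 18 h was -0.28 (adjusted p=0.109, and 0.0136 with the replicate block). The log2 fold-change of Slc38a4 was 0.34 at 18 h (s.e. 0.0945, adjusted p=0.0578, and 0.0129 with the block) and 0.41 at 24 h (adjusted p=0.0271). Sfmbt2, a Polycomb-family gene needed in the trophoblast, was at 6.38, 7.49 and 4.79 FPKM at 0 h, 8.69, 9.06 and 8.04 by 18 h and 8.31, 9.17 and 8.70 by 24 h, with no overlap between libraries with and without dox. Its log2 fold-change was 0.48 at 18 h (s.e. 0.141, adjusted p=0.068, and 0.0213 with the block) and 0.50 at 24 h (adjusted p=0.0494). At 18 h edgeR and DESeq2 gave Slc38a4 adjusted p values of 0.0347 and 0.0171, and Sfmbt2 0.0341 and 0.0102. Leaving out 1 library took the adjusted p at 24 h above 0.05 in 7 of 9 fits for Impact, 4 for Slc38a4 and 8 for Sfmbt2, to at most 0.15.

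Nap1l5 passed the test at 18 h and not at 24 h. This paternally expressed retrogene, related to nucleosome assembly proteins, was at 1.21, 1.49 and 1.20 FPKM at 0 h, 0.901, 0.827 and 0.807 by 18 h and 1.11, 1.32 and 1.14 by 24 h. The 18 h libraries lay below both other times, and the 0 h and 24 h libraries overlapped. On the log2 scale the fold-change was -0.56 at 18 h (s.e. 0.143, adjusted p=0.0453) and -0.12 at 24 h (adjusted p=0.637). It was 0.44 at 24 h compared with 18 h (unadjusted p=0.0122, adjusted p=0.857). Nap1l5 had 36 to 66 reads per library, lies inside Herc3 on the other strand, and passed the test at 18 h in 0 of the 9 fits that left out 1 library, where the adjusted p was 0.0614 to 0.139. With edgeR the adjusted p of Nap1l5 at 18 h was 0.0627 and with DESeq2 0.103. With the replicate block it was 0.0182 in limma and 0.0237 in edgeR.

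Plagl1, Nnat, Gnas, Inpp5f, Zdbf2 and Zrsr1 passed the test at neither time. Of these, Zdbf2, at 12.3 to 16.9 FPKM, was lower at both times with the replicate block (adjusted p=0.0472 by 18 h and 0.0399 by 24 h), and Plagl1 and Nnat were lower at 18 h with it (adjusted p=0.0338 and 0.0227). The 19 imprinted genes for which no standard error is given here had log2 fold-changes of -0.36 to 0.29 at 18 h and -0.30 to 0.37 at 24 h, with adjusted p values of at least 0.068 and 0.0563.

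Split by the expressed allele, 6 of the 15 maternally expressed genes were lower at 18 h (3.72% of all genes) and 1 higher (4.27%), and 5 were lower (5.11%) and 2 higher (6.52%) at 24 h. Of the 23 paternally expressed genes 1 was lower and 3 higher at 18 h, and 1 was lower and 6 higher at 24 h, beside the same shares of all genes. With the replicate block 8 paternally expressed genes were lower and 7 higher at 18 h, and 4 lower and 8 higher at 24 h, while 7 maternally expressed genes were lower and 1 higher at 18 h, and 6 lower and 2 higher at 24 h. The shares of all genes with the block were 10.7% lower and 10.8% higher at 18 h, and 12.5% and 13.6% at 24 h. Without the block the lower maternally expressed genes at 24 h were Grb10, Phlda2, Ppp1r9a, Meg3 and Rian, of which Meg3 and Rian share a cluster. The higher paternally expressed genes were Peg3, Usp29, Peg12, Igf2, Slc38a4 and Sfmbt2, of which Peg3 and Usp29 share a cluster. These counts depend on single libraries and on the filter. Without 18 h replicate 2 or 3, or with no filter, only Grb10 and Rian were lower maternally expressed genes at 18 h, and only Grb10 at 24 h. Without 0 h replicate 1, only Peg3, Usp29 and Peg12 were higher paternally expressed genes at 24 h.

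The median log2 fold-change of the maternally expressed genes was -0.31 by 18 h and -0.13 by 24 h, and that of the paternally expressed genes was -0.08 by 18 h and 0.05 by 24 h, which turned to -0.0223 with median centring. Over all genes tested it was -0.003 by 18 h and 0.004 by 24 h. The difference between the allele classes was not tested, since the genes of a cluster are not independent and were chosen with earlier results known. The summed level of the maternally expressed genes was 111.4 to 130.2 FPKM at 0 h, 91.7 to 92.0 at 18 h and 93.0 to 99.0 at 24 h. Without Grb10 and Phlda2, left out after their values were seen, the other 13 summed to 76.9 to 80.6 FPKM at 0 h, 68.3 to 71.6 at 18 h and 73.0 to 74.9 at 24 h. The paternally expressed genes summed to 636.3 to 726.3 FPKM at 0 h, 630.3 to 684.5 at 18 h and 683.8 to 739 at 24 h, and the later ranges overlapped that at 0 h.

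**Figure D4:**
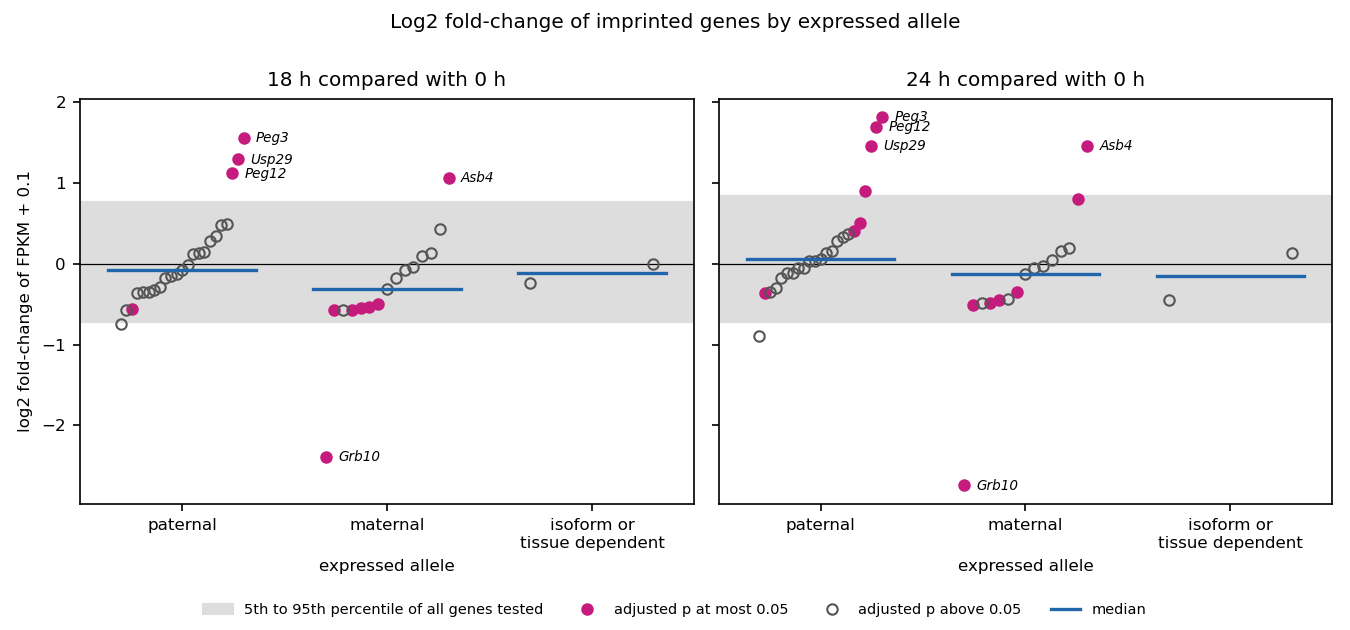
Log2 fold-change of each imprinted gene at 18 h (left) and 24 h (right) compared with 0 h, by expressed allele, with filled points at an adjusted p of at most 0.05, a blue line at the median and a grey band from the 5th to the 95th percentile of all genes tested. Most points lie inside the band, while Grb10, Peg3, Usp29, Peg12, Asb4 and Dlk1 lie outside it at both times and Igf2 at 24 h.

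In 5 of the 9 clusters the log2 fold-changes of all genes lay on the same side of 0 at 18 h, and in 5 at 24 h. Of all genes 49.4% lay above 0 at 18 h and 50.6% at 24 h, and 4 of the clusters hold only a pair of genes, so the sharing of a side is a description. Those of Grb10 and Ddc, H19 and Igf2, Mest and Copg2, and Dlk1 and Meg3 did so at both times, the Igf2r and Airn pair at 18 h, and the Peg3 cluster at 24 h. Sizes differed within clusters, with Grb10 at -2.75 and Ddc at -0.45, and Peg3 at 1.82 and Zim1 at 0.20, at 24 h. Asb4 rose and Ppp1r9a fell in the Peg10 cluster. In the Dlk1 and Meg3 cluster all 4 genes had log2 fold-changes below 0 at both times, with medians of -0.58 by 18 h and -0.47 by 24 h, and both members of the H19 and Igf2 pair had log2 fold-changes above 0. In the cluster of Snrpn and Ube3a 3 of 6 genes lay above 0 at each time.

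Between 18 h and 24 h no imprinted gene was called by limma, where 0.0167% of all genes were called higher and 0.00557% lower. At an unadjusted p under 0.05 there were 5 (Peg3, Peg12, Nap1l5, Rian and Inpp5f), where 5.59% of all genes were, and the lowest adjusted p was 0.833. On recovered reads edgeR and DESeq2 also called 0, with 5 and 4 genes at an unadjusted p under 0.05 (5.69% and 4.11% of all genes). With the replicate block, added after the data were seen, edgeR gave Peg3, Igf2 and Mest an adjusted p of at most 0.05, as it did 1.34% of all genes. The 24 h libraries lay all above the 18 h libraries for 7 imprinted genes (6.81% of all genes) and all below for 1, Grb10 (6.04%). In the fit the log2 fold-change came to above 0 for 33 of the 40 imprinted genes and for 52% of all genes tested, with medians of 0.14 and 0.007.

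The level of some imprinted genes followed the replicate number rather than the time. Nnat, which encodes a proteolipid of the endoplasmic reticulum, was at 8.50, 4.97 and 3.37 FPKM at 0 h, 6.72, 4.19 and 2.40 by 18 h and 7.90, 5.76 and 3.39 by 24 h in replicates 1, 2 and 3. Plagl1, a zinc finger gene that regulates other imprinted genes, was at 1.48, 2.90 and 3.12 FPKM at 0 h, 1.08, 2.08 and 2.72 by 18 h and 1.47, 2.47 and 3.28 by 24 h. Replicate 1 was highest for Nnat and lowest for Plagl1 at every time, and within a replicate the times differed less.

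The replicate number took up 89.2% of the sum of squares of log2 FPKM for Nnat (limma F-test, adjusted p=0.00229), 88.8% for Plagl1 (adjusted p=0.00438) and 82.1% for Gnas (adjusted p=0.0141). Mest, Igf2, Phlda2, Zdbf2 and Sgce also passed this test, which made 8 of 40 imprinted genes, where 9.83% of all genes passed. For Peg3 the time took up 99.2% and the replicate number 0.105%, and for Grb10 94.8% and 0.631%. The median share was 66.8% for time and 21.6% for the replicate number over the imprinted genes, and 38.1% and 27.6% over all genes. The replicates are described as separate biological experiments. Whether these differed in day, passage or batch was not stated, and these cannot be told apart.

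**Figure D5:**
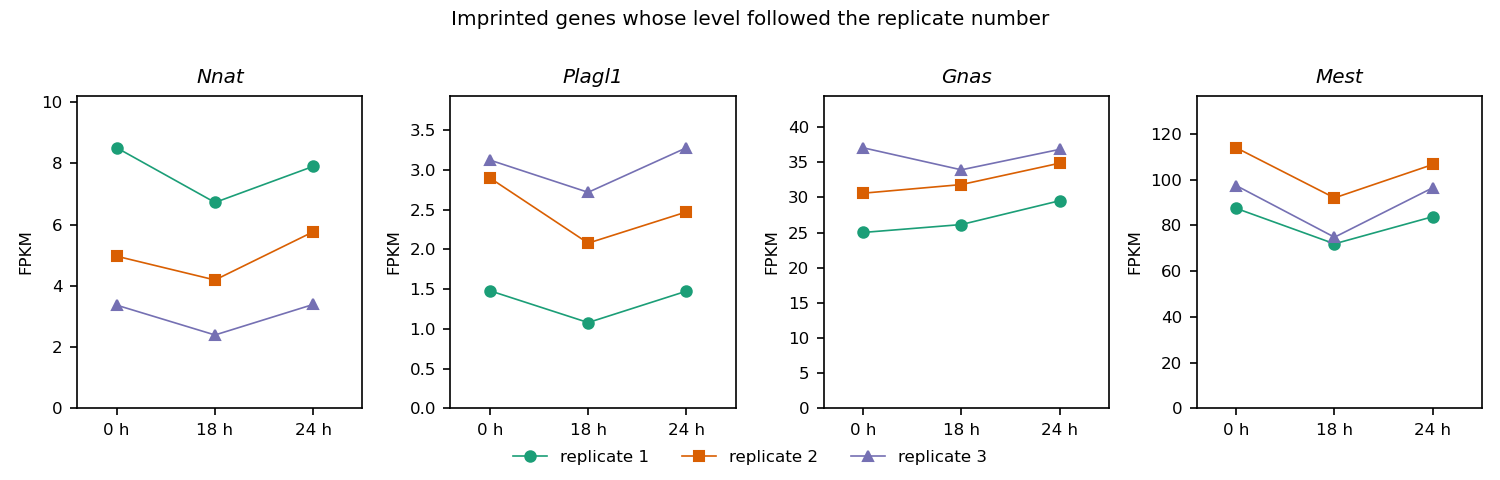
Level in FPKM of Nnat, Plagl1, Gnas and Mest by time, with a line and symbol for each replicate number. The lines for Nnat and Plagl1 keep apart at all times, with Nnat replicate 1 at 6.72 to 8.50 FPKM and replicate 3 at 2.40 to 3.39 FPKM.

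Other imprinted genes were read from lists written from general knowledge. Of 7 other paternally expressed genes tested, 0 were higher (4.27% of all genes at 18 h and 6.52% at 24 h) and 1 lower (3.72% and 5.11%) at each time. This was Snhg14, the transcript antisense to Ube3a, with log2 fold-changes of -0.68 by 18 h (adjusted p=0.0181) and -0.61 by 24 h (adjusted p=0.0208). Of 15 other maternally expressed genes tested, 3 were higher at 24 h and 0 lower. They were Slc22a3, in the cluster of Igf2r, at 0.0123 FPKM at 0 h and 0.157 at 24 h, H13 (log2 fold-change 0.36, adjusted p=0.0197) and Atp10a (0.35, adjusted p=0.0441). Slc22a3 reached the filter of 0.1 FPKM only through the libraries with dox and so had to differ. With the replicate block 1 of the paternally expressed genes was higher and 2 lower at 24 h, and 4 of the maternally expressed genes were higher and 3 lower, where 13.6% of all genes were higher and 12.5% lower.

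Among 16 regulators of imprints, 2 were higher and 3 lower at 24 h, where 6.52% and 5.11% of all genes were. With the replicate block 3 were higher and 5 lower, where 13.6% and 12.5% of all genes were. Dnmt3l, the cofactor of DNA methylation in germ cells, was called downregulated at 24 h, at 83.3±18.6 FPKM (mean±s.d., n=3) at 0 h and 40.1±11.5 at 24 h (log2 fold-change -1.07, adjusted p=0.0228). Zfp57, the zinc finger protein that guards imprints, fell by 0.52 on the log2 scale (adjusted p=0.0442), Ehmt2 fell by 0.50 (adjusted p=0.00925), Ctcf rose by 0.39 (adjusted p=0.00895) and Dppa3 rose by 0.98 (adjusted p=0.042). Dnmt1, Uhrf1 and Trim28, which act in keeping methylation at imprints, passed the test at neither time. Ctcf and these last genes were named after their values were seen. Methylation itself was not measured.

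Several imprinted genes are also abundant in cell types other than ESCs, so markers of such cells were read beside them. The summed level of 10 neural markers was 47.5 to 59.1 FPKM at 0 h and 83.1 to 119.1 at 24 h, with 6 called upregulated, where 2.07% of all genes were. Foxd4 and Neurod4, among these 6, reached the filter of 0.1 FPKM only through the libraries with dox. Most of the neural sum was Tubb3, at 41.5 FPKM at 0 h and 63.1 at 24 h (adjusted p=0.0638, and 0.000739 with the replicate block). Map2 and Pax6 did not pass either, and Pax3 lay under the filter. The summed level of 10 trophoblast markers was 9.34 to 11.3 FPKM at 0 h and 25.8 to 32.1 at 24 h, with Hand1 and Cdx2 called upregulated. Tfap2c was higher by adjusted p alone (log2 fold-change 0.998, adjusted p=0.0365), while Eomes was at -0.36 (adjusted p=0.24). Tpbpa and Prl3d1 were at 0 in every library and Elf5 at 0.0192 FPKM or less on average. Primitive endoderm markers summed to 19.6 to 22 FPKM at 0 h and 24.8 to 28.5 at 24 h, with Ttr at 0, and fibroblast markers to 27.2 to 57.3 FPKM and 45.1 to 86.3. Of these, Col4a1 in the endoderm list was higher at 24 h (log2 fold-change 0.40, adjusted p=0.0267), and in the fibroblast list Pdgfrb was called upregulated (1.10, adjusted p=0.0185) and Thy1 was lower (-0.74, adjusted p=0.0494). Acta2, the highest fibroblast marker, was at 30.5 FPKM at 0 h and 56.6 at 24 h (0.90, adjusted p=0.15, and 0.000337 with the replicate block). Dcn was lower with the block (-0.57, adjusted p=0.0389), while Col1a1 and Col1a2 passed in neither fit. With the block 2 fibroblast markers were higher and 2 lower at 24 h, where 13.6% and 12.5% of all genes were. The part of these markers' cells in the changes of Peg3, Asb4, Peg12, Igf2, H19, Phlda2 and Sfmbt2 was not tested. In bulk RNA, fewer cells of a type and less RNA per cell cannot be told apart, which holds for the fall of Grb10 too.

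Promoter windows were found in RefSeq for 35 of the 40 imprinted genes, 55 windows in all. CANNTG was in 33 of these windows (60%, and 72.3% of all promoters). Its form CAGCTG was in 5 (9.09%, and 16.3% of all), and its form CACCTG, or CAGGTG on the other strand, in 9 (16.4%, and 20.2% of all). TGCCGC, a short core that ZFP57 is known to bind when methylated, read as GCGGCA on the other strand, was in 12 (21.8%, and 11.6% of all). Genes have between 1 and 4 windows here, some of which overlap, and the windows differ in GC content, so these shares are a description only.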

How the data were processed

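RNA-seq libraries of mouse ESCs without dox and after 18 h or 24 h of it, with 3 biological replicates each, were grouped by their labels. The authors trimmed reads with cutadapt 1.9, aligned them to GRCm38 with STAR 2.5.2b and tested genes with edgeR 3.16.5. The Ensembl release, the counting tool and its use of strand were not given in the sources used here. The authors deposited FPKM values for 47729 genes, and for 19210 genes a per-library signal, a CPM value whose library size they had rescaled. The log2 fold-changes, p-values and false discovery rates of the authors' comparisons in that table were not used. No sample column was left unmatched.

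Because FPKM values are not counts, limma 3.58.1 (lmFit and trended eBayes; R 4.3.3) was run on log2(FPKM+0.1) for genes averaging 0.1 FPKM or more, with all 9 libraries and no block. The added 0.1 shrinks the fold-change of low genes. Benjamini-Hochberg adjustment ran over all 17951 genes, and a call needed an adjusted p up to 0.05 together with a log2 fold-change of 1 or more in size. Adjusted p values are limma's unless edgeR or DESeq2 is named. Reads were recovered from the signal table: 100% of values came out whole within 0.001 reads. These went into edgeR 4.0.16 and DESeq2 1.42.0 as alternatives, with libraries of 22028363 to 26471569 reads. Replicates of one time differed by more than sampling noise (chi-square over degrees of freedom 5.39 to 16.3). The replicate numbers were taken to pair the libraries because deviations from the time means correlated at r=0.211 to 0.548 in all 9 same-number pairs, across 11893 genes, which are not independent. The other 18 pairs gave -0.399 to 0.11. Deviations at a time sum to 0, so positive same-number values push the other pairs below 0, and these are not separate evidence. An exact test of 3 libraries against 3 cannot go below p=0.1 and was not used.

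The members, allele classes and gene lists were chosen with earlier results of these data known. A fold-change with its standard error was given for members whose adjusted p was 0.05 or lower, or whose log2 fold-change was 0.5 or more in size, at 18 h or 24 h, and for Grb10, Ddc, H19, Igf2, Cdkn1c and Meg3. Coordinates came from GENCODE M21 and promoter sequences from RefSeq on GRCm38.p6. Alternatives were pseudocounts of 1 and 0.01, no filter, a mean FPKM of 1 or more, median centring, quantile normalization, untrended eBayes, fits of only 2 time points, the replicate block, no minimum fold-change, each library left out, edgeR with and without a filter, and DESeq2. edgeR with the block, and the block with no minimum fold-change, were added after the data were seen. Figures were drawn with matplotlib 3.10.9.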

Additional observations from a re-analysis of the deposited data

How the results depend on the processing

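Of the values of the 21 imprinted genes given with a standard error, 717 alternatives kept the direction and the side of the threshold, 143 moved it above an adjusted p of 0.05, 51 moved it to or below, and 5 reversed the sign. The 717 include values that were above 0.05 and stayed there, whereas the 143 come only from values that had passed. The 5 reversals were all for Cdkn1c, which passed no test: 0.0958 without 0 h replicate 2 and 0.0305 without 18 h replicate 3 at 18 h, and -0.0303 with median centring, -0.125 without 0 h replicate 3 and -0.0481 without 24 h replicate 1 at 24 h, where leaving out 1 library gave -0.125 to 0.185. The 4 genes called upregulated at 18 h became 1 with a pseudocount of 1, 2 at a mean FPKM of at least 1, where Usp29 and Asb4 were not tested, 2 to 4 when 1 library was left out, the lowest without 0 h replicate 2, and 8 with the replicate block and no minimum fold-change. Over all genes tested, the 239 upregulated calls at 18 h became 66 with a pseudocount of 1. They became 125 of 11893 genes at a mean FPKM of at least 1, and 158 to 242 when 1 library was left out. The 4 imprinted genes called upregulated at 24 h became 1 with a pseudocount of 1, 2 at a mean FPKM of at least 1, 4 to 5 when 1 library was left out, 8 with no minimum fold-change and 10 with the block as well. The 5 were reached through Igf2, without 0 h replicate 3 and without 24 h replicate 1. Over all genes tested, the 371 upregulated calls at 24 h became 84 with a pseudocount of 1. They became 166 of 11893 genes at a mean FPKM of at least 1, and 240 to 354 when 1 library was left out. The 1 imprinted gene called downregulated at 18 h became 2 with DESeq2 and with edgeR and the block, through Dlk1, 7 with no minimum fold-change and 15 with the block as well. The 1 at 24 h became 2 with edgeR, with or without its filter or the block, and with DESeq2, through Dlk1, 6 with no minimum fold-change and 11 with the block as well. In fits of only the 2 time points compared, 5 of the 11 genes past an adjusted p of 0.05 at 18 h kept it (Grb10, Peg3, Usp29, Peg12 and Rian), as did 5 of the 14 at 24 h (Grb10, Peg3, Usp29, Peg12 and Asb4). By adjusted p alone, 5 imprinted genes passed at 18 h and 7 at 24 h with no filter, and 7 and 8 with untrended eBayes. With no filter Asb4 at 18 h, and Meg3, Phlda2 and Ppp1r9a at both times, no longer passed. The median of the paternally expressed genes at 24 h, 0.05, turned to -0.0223 with median centring and ranged from 0.0269 to 0.178 when 1 library was left out. That of the maternally expressed genes, -0.13, was -0.24 at a mean FPKM of at least 1, -0.21 with median centring and -0.253 to -0.0904 when 1 library was left out. Grb10 and Peg3 passed both thresholds in all 23 settings at both times. The replicate block in limma changed no other call of an imprinted gene than those given beside the results. Low read numbers limit Slc22a18, Airn, Dlk1, Asb4, Peg12, Nap1l5, Zim1 and H19. The causes were not tested.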
